A study of Mus musculus with 32 samples.

Results

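The linker histone H1 genes are 9 of the 21938 protein-coding genes annotated on the mouse chromosomes. They were taken by name: Hist1h1a, Hist1h1b, Hist1h1c, Hist1h1d, Hist1h1e, Hist1h1t, H1f0, H1fx and H1foo. Of the 5723 chromatin RNA transcripts in the authors' deposited table, 9 carry the name of a member. Of the 61948 MapR peaks of the 6 deposited lists, 29 lay on a member or within 5 kb of it.

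The cells were mouse embryonic stem cells in medium with serum and LIF, either wild type (WT) or of a histone H1 triple knockout line (H1-TKO, called TKO here). The cheRNA assay sequenced RNA left on the insoluble chromatin pellet, with 3 samples per genotype, and its deposited table holds no value per sample. MapR exposes cells to a fusion of inactive RNase H and micrococcal nuclease (RNH), which releases DNA near R-loops, structures in which RNA is paired with a DNA strand. RNH was used in 2 libraries of WT and 2 of TKO, and a protein without the RNase H part (MNase-only) in 1 of each. The labels name neither the 3 deleted genes nor the deleted parts, and they do not say whether the line is 1 clone or whether replicates came from separate cultures. That Hist1h1c, Hist1h1d and Hist1h1e are the genes knocked out in this line is background knowledge.

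As background, H1 proteins bind the DNA at the entry and exit of the nucleosome and help to compact chromatin. Most H1 genes, called replication-dependent, lie among core histone genes, have no intron and are read mainly during DNA synthesis. Their mRNAs end in a short stem-loop in place of a poly(A) tail, which the stem-loop binding protein holds. H1f0 and H1fx are replication-independent, Hist1h1t belongs to male germ cells and H1foo to the egg.

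The family falls into groups by position and by sequence. Hist1h1a, Hist1h1b, Hist1h1c, Hist1h1d, Hist1h1e and Hist1h1t lie on chromosome 13, within the 2.22 Mb from 21715763 to 23934851 that hold the 54 Hist1 genes. H1f0 lies on chromosome 15 (79028450 to 79030504), and H1fx (87980421 to 87981637) and H1foo (115944938 to 115950236) lie on chromosome 6. All coordinates are on mm10. Of the 9 members, 8 have 1 annotated exon, as do 5.80% of protein-coding genes, and H1foo is the exception.

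The promoters of the 6 chromosome 13 members are shown because a TATA box match is found in these 6 and in no other member. All of them but Hist1h1a also hold an H1 box, which no other member does. Each stretch runs from base -140 to base -1 before the RefSeq start site, 5′ to 3′ on the strand of the gene, from RefSeq sequence of build GRCm38.p6. Capitals mark matches on either strand to AAACACA (the H1 box, an element of H1 promoters), CCAAT (the box bound by NF-Y) or TATANA (the TATA box). Hist1h1c, Hist1h1d and Hist1h1e come first, then Hist1h1b, Hist1h1t and Hist1h1a.
Hist1h1c: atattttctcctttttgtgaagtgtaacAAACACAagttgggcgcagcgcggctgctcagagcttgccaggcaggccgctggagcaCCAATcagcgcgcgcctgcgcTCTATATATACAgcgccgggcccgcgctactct
Hist1h1d: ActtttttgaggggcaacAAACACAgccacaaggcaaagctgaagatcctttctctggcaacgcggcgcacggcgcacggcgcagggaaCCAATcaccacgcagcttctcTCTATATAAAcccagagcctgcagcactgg
Hist1h1e: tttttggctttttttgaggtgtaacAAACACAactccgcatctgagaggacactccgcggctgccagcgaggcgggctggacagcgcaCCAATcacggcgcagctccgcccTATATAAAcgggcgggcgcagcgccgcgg
Hist1h1b: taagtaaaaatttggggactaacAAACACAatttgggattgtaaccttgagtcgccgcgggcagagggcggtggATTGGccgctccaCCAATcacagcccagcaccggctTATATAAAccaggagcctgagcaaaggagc
Hist1h1t: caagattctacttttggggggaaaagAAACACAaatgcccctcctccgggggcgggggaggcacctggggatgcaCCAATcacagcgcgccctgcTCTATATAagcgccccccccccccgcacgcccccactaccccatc
Hist1h1a: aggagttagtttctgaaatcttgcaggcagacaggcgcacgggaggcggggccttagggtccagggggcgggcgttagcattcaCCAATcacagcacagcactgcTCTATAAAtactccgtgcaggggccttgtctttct
On the plus strand these are chr13:23738667-23738806 (Hist1h1c), chr13:23554892-23555031 (Hist1h1d), chr13:23695671-23695810 (Hist1h1t) and chr13:23763528-23763667 (Hist1h1a). On the minus strand they are chr13:23622559-23622698 (Hist1h1e) and chr13:21780626-21780765 (Hist1h1b).

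The H1 box was found in 5 members, Hist1h1b, Hist1h1c, Hist1h1d, Hist1h1e and Hist1h1t, with its first base between -122 and -112. Across 32851 RefSeq promoter windows of 300 bases, 250 before and 50 after a start site, 7.18% hold this box, 37.4% hold CCAAT and 24.7% hold TATANA. All 3 boxes stood together in those 5 members, against 0.959% of all windows. The longest run that ends in the H1 box and is shared by at least 4 members, AACAAACACA, was found in Hist1h1b, Hist1h1c, Hist1h1d and Hist1h1e, against 0.253% of all windows. Hist1h1a holds a CCAAT and a TATA match, H1foo holds 2 CCAAT matches, and H1f0 and H1fx hold none of the 3. TATANA can overlap itself, so adjoining matches were drawn as 1 block. Because members were grouped with the promoter sequences in view, these shares are a description.

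**Figure D1:**
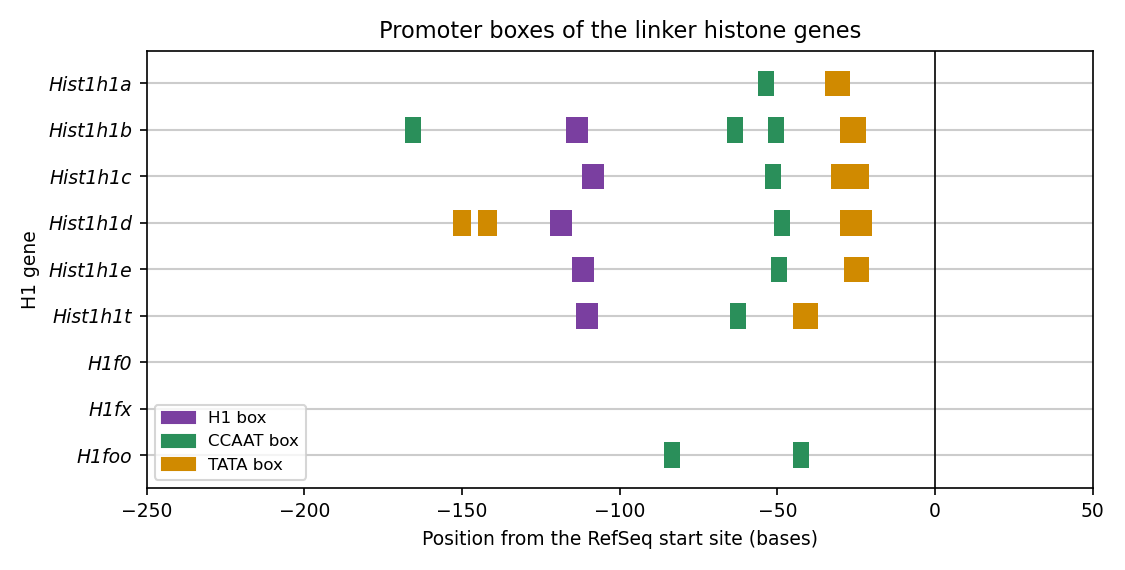
Matches to the H1 box, CCAAT and TATA letters on either strand in the promoter window of each of the 9 H1 genes, by position in bases from the RefSeq start site (0). An H1 box, then a CCAAT and then a TATA match stand in that order in Hist1h1b, Hist1h1c, Hist1h1d, Hist1h1e and Hist1h1t, with further matches upstream of the H1 box in Hist1h1b and Hist1h1d, and the windows of H1f0 and H1fx are empty.

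The stem-loops at the ends of the chromosome 13 members are shown because the chromatin RNA described next runs past several of them. A stem GGCTCT, a loop TTTN and the other side of the stem, AGAGCC, were searched as 1 run on the strand of the gene, and the match is in capitals.
Hist1h1c: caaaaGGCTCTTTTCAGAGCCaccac
Hist1h1d: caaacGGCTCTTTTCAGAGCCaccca
Hist1h1e: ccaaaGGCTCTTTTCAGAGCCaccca
Hist1h1b: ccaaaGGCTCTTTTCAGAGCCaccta
Hist1h1a: ccaacGGCTCTTTTCAGAGCCaccaa
Hist1h1t: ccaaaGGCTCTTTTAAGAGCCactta
The match began 28 to 44 bases past the coding sequence in each of the 6 genes. The 16-base match was identical in 5 of them and differed in Hist1h1t at the position written N. H1f0, H1fx and H1foo had no match within 2000 bp of the gene. The matches lie at chr13:23739512-23739527, chr13:23555787-23555802, chr13:21779837-21779852, chr13:23621782-23621797, chr13:23764392-23764407 and chr13:23696525-23696540, for Hist1h1c, Hist1h1d, Hist1h1b, Hist1h1e, Hist1h1a and Hist1h1t in that order.

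The first comparison asked which H1 genes had more or less RNA on chromatin in TKO cells. Hist1h1c, Hist1h1d and Hist1h1e, 3 members, had a gene transcript lower in TKO in the authors' deposited table, and 4 (Hist1h1b, Hist1h1t, H1f0, H1fx) had a higher one. Hist1h1a and H1foo are not listed in any class. Over all 21938 protein-coding genes, 4.14% have a listed gene transcript higher in TKO and 4.8% a lower one. The table lists only transcripts with an absolute log2 value of at least 1.00, with no error and no p-value, so these counts carry no test. Its direction is not stated: the sign was set so that the genes known to be deleted are lower, and their own direction is therefore fixed by that choice.

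The 3 lower genes encode H1 proteins that are abundant in somatic cells. In the authors' deposited table the Hist1h1d transcript stood at a log2 TKO over WT of -5.02, the 19th lowest value of 2904 gene transcripts. Hist1h1e followed in the authors' deposited table at -4.83, rank 27 from the lowest, and Hist1h1c at -3.61, rank 69. Of all other gene transcripts in the authors' deposited table, H60c (-5.03) and Atp8b1 (-5.04) had the values nearest to Hist1h1d, a likeness over 1 comparison only. The remaining listed members lie on the other side of zero, with Hist1h1t at 3.52, H1f0 at 2.62, H1fx at 1.30 and Hist1h1b at 1.01 in the authors' deposited table. Hist1h1b, a replication-dependent gene of dividing cells, is thus listed at the edge of the table. Of the gene transcripts in the table as a whole, 45% are higher. The 2 gene transcripts nearest in value to Hist1h1t in the authors' deposited table are Igfbp7 (3.51) and Rimbp2 (3.53).

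**Figure D2:**
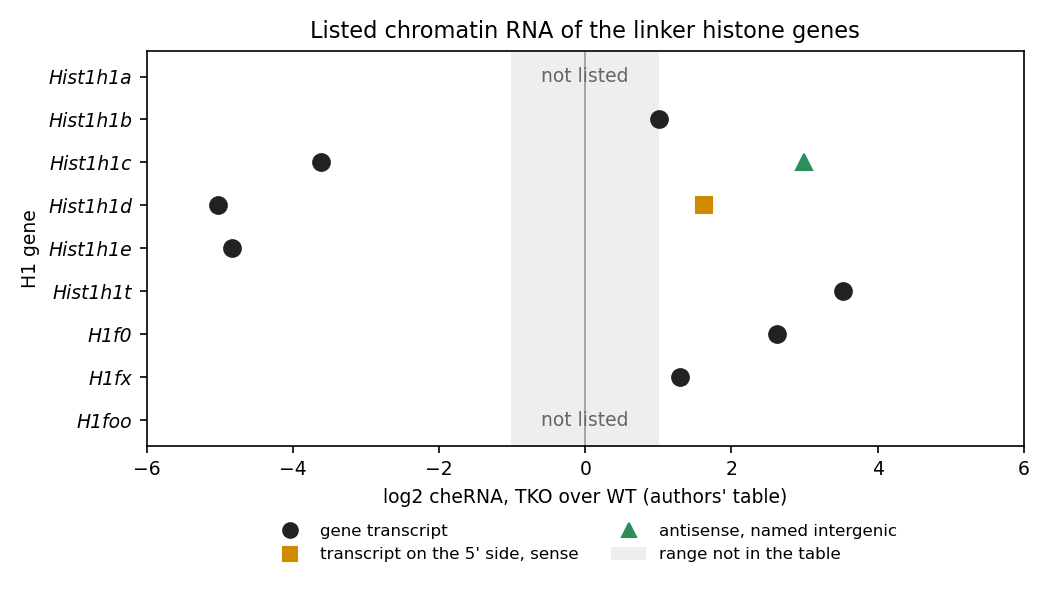
The log2 TKO over WT of each listed transcript named for an H1 gene, from the authors' deposited table, by gene and transcript class; the grey band is the range that the table does not hold. Gene transcripts of Hist1h1c, Hist1h1d and Hist1h1e lie between -5.02 and -3.61, those of Hist1h1b, H1fx, H1f0 and Hist1h1t between 1.01 and 3.52, and the other 2 transcripts at 1.63 and 2.99.

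The listed pieces are not the mature mRNAs. The Hist1h1d piece spans 10513 bp (chr13:23555032-23565544), starts on the first base of the RefSeq gene and ends 9742 bp past the stem-loop. The Hist1h1b piece spans 8927 bp (chr13:21771699-21780625), starts on the first base of its gene and ends 8138 bp past the stem-loop. Hist1h1c has a piece of 7783 bp (chr13:23738832-23746614), which ends 7087 bp past its stem-loop. By contrast, the pieces of Hist1h1t (1209 bp) and Hist1h1e (1400 bp) end 479 and 656 bp past theirs. The piece of H1f0 spans 2608 bp and ends 368 bp past the annotated gene, and that of H1fx spans 3759 bp and ends 2587 bp past it. Each log2 value is thus for the gene together with the sequence that follows it. The values cannot be split between the gene and what follows.

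Next to each lower gene the table lists RNA that is higher. At Hist1h1d, a sense piece on the 5′ side (chr13:23546277-23555030, 8754 bp) has a log2 value of 1.63 in the authors' deposited table and ends 1 bp before the gene piece at -5.02, in the same assembled unit. It holds the start of the GENCODE model of Hist1h1d (23553262), which is longer than the RefSeq gene. At Hist1h1e, a sense piece named for its downstream neighbour Hist1h2be (chr13:23596818-23621124, 24307 bp) has 2.08 in the authors' deposited table, again 1 bp from the gene piece at -4.83 and in the same unit. Hist1h2be is a core histone H2B gene whose annotated start, 23621124, is the first base of that piece. At Hist1h1c, a transcript on the opposite strand (chr13:23734753-23740880, 6128 bp) covers the whole gene and has 2.99 in the authors' deposited table.

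Such changes of direction between joined pieces are rare in the table. Of 196 pairs of listed pieces of 1 assembled unit with at most 1 bp between them, 5 have opposite signs (2.55%). The 5 include the pairs at Hist1h1e and Hist1h1d. The pair at Hist1h1e differs by 6.92 on the log2 scale of the authors' deposited table, the largest difference of the 5, and the pair at Hist1h1d by 6.65. The next pair, at Smarcad1, differs by 3.29 in the authors' deposited table. Other members have no such pair. In both H1 pairs the lower piece is that of a gene known as knocked out, and the part of the knockout in these differences was not tested.

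Most listed transcripts in the span of the Hist1 genes were higher. Between the first and last Hist1 gene the table holds 22 transcripts, of which 19 are higher and 3 lower, and the lower ones are the gene transcripts of Hist1h1c, Hist1h1d and Hist1h1e. The 19 include intergenic ones named for the vomeronasal receptor genes Vmn1r188, Vmn1r189 and Vmn1r191. Those run from 5.83 to 6.99 in the authors' deposited table and lie more than 50 kb from any member. On the whole of chromosome 13, 73.7% of 213 listed transcripts are higher, against 60.1% of the whole table. These shares mix classes: 45% of all gene transcripts are higher, so the other classes together lie above 60.1%. The share of a set thus depends on how many of its transcripts are intergenic. No share over all intergenic transcripts is given here, so the counts in the span of the Hist1 genes are a description. All 9 transcripts named for a Hist1 core histone gene are higher, 7 of them intergenic and 2 gene transcripts. The pair consists of Hist1h2be and of the testis-type H2A gene Hist1h2aa (log2 2.87 in the authors' deposited table). In the authors' deposited table the intergenic ones run from 1.27 (Hist1h2ah) to 6.14 (Hist1h2bj). Within 50 kb of H1fx, by contrast, Hmces (-2.59) and Rab7 (-1.35) are lower in the authors' deposited table, and no other listed transcript lies within 50 kb of H1f0 or H1foo.

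The counts of listed genes that work with H1 are read against all protein-coding genes, of which 4.14% are listed higher and 4.8% lower. Of 26 genes of histone gene expression and histone mRNA processing found in the annotation, such as Slbp and Npat, 0 have a listed gene transcript. Of 27 genes for H1 chaperones and chromatin proteins that bind or compete with H1, 1 is higher and 2 are lower, which is close to those shares. In the authors' deposited table the nucleosome-binding protein gene Hmgn3 has a log2 value of 2.13, the architectural protein gene Hmga2 -2.27 and the histone H3 lysine methyltransferase gene Suv39h1 -1.06. The other germ-cell linker histone genes, H1fnt and Hils1, are not listed. These lists are short, and no count in them was tested against the same 4.14% and 4.8%. Of 8 germ cell markers 2 are higher, Stra8 (2.84) and Hormad1 (1.97) in the authors' deposited table, while Ddx4, Dazl, Sycp3, Prm1, Tnp1 and Acrv1 are not listed, and their part in the value of Hist1h1t was not tested. Of 10 fibroblast markers Vim is higher (2.25 in the authors' deposited table), and its part in the other values was not tested. None of 12 embryonic stem cell markers has a listed gene transcript, but as unchanged transcripts are not listed, the table cannot show whether they are present.

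The second comparison asked where R-loops, read as MapR peaks, lie on the H1 genes in each genotype. The wide window of 5 kb showed no difference between genotypes beyond the spread of libraries. In WT, 7 members had a peak on or within 5 kb in replicate 1 and 1 in replicate 2, and in TKO the numbers were 9 and 2. The replicates of a genotype are farther apart than the genotypes, as their lists are: 22336 and 6612 peaks in WT, 25392 and 6458 in TKO. The mean was 5.5 members in TKO and 4 in WT, a difference of 1.5 (two-sided exact permutation test, p = 0.67, where 2 against 2 libraries allow no p below 0.33). Without TKO replicate 1 the difference was -2, and without WT replicate 2 it was -1.5. Without WT replicate 1 it was 4.5, and without TKO replicate 2 it was 5. It was -1 when the peak had to lie on the gene body and -0.5 with a stricter peak threshold.

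The share of members with a peak was above that of all genes in the replicate 1 libraries and slightly below it in the replicate 2 libraries. A peak within 5 kb was found for 57.2% of protein-coding genes in WT replicate 1, 19.4% in WT replicate 2, 61.6% in TKO replicate 1 and 22.9% in TKO replicate 2. For the members the shares were 77.8%, 11.1%, 100% and 22.2%. The MNase-only libraries had no peak at any member, against 1.07% of genes in WT and 0.994% in TKO. RNH libraries had 4.75 members with a peak on average, against 0 in the controls (two-sided exact permutation test over 15 splits, p = 0.13, with 0.067 the smallest possible), where the control lists hold only 568 and 582 peaks.

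**Figure D3:**
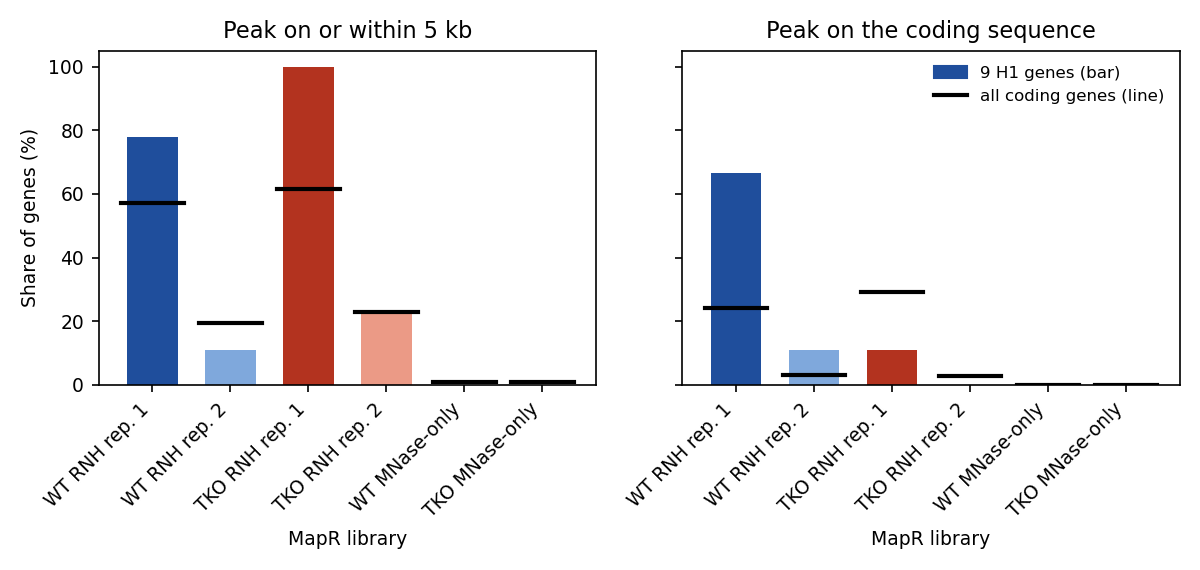
Share of the 9 H1 genes (bars, in percent) with a MapR peak on or within 5 kb (left) or on the coding sequence (right) in each of the 6 libraries, with the same share over all protein-coding genes (black lines). On the right, WT replicate 1 reaches 66.7% against a line at 24.1%, and TKO replicate 1 11.1% against a line at 29.1%. Hist1h1c, Hist1h1d and Hist1h1e, known as knocked out, are among the 9.

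Many of the peaks belong as much to neighbours as to the H1 genes. Of the 29 peaks, 14 lay on the GENCODE gene body of a member and 15 beside it. Of the latter, 12 had their nearest coding-gene start at a core histone gene of the cluster, such as Hist1h4f and Hist1h3e around Hist1h1d, Hist1h4c beside Hist1h1t and Hist1h3i beside Hist1h1b. For these 48 core histone genes, all had a peak within 5 kb in replicate 1 of each genotype, 15 in WT replicate 2 and 19 in TKO replicate 2. The peak beside H1f0, found in TKO replicate 1 only, lay 163 bp from the start of Gcat. Peaks past the coding end of Hist1h1e count as on the gene by its GENCODE model, but their nearest start was that of Hist1h2be. Peaks on the H1 gene bodies were weaker within their own lists than those beside them. Their fold enrichment over the local background, as the authors gave it, had a median percentile of 20.6 (range 1.31 to 76.2, n = 14 peaks) within the list of the library, against 67.2 (9.89 to 98.2, n = 15 peaks) for the peaks beside the genes. Peaks of 1 library are not replicates, and this difference was not tested.

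**Figure D4:**
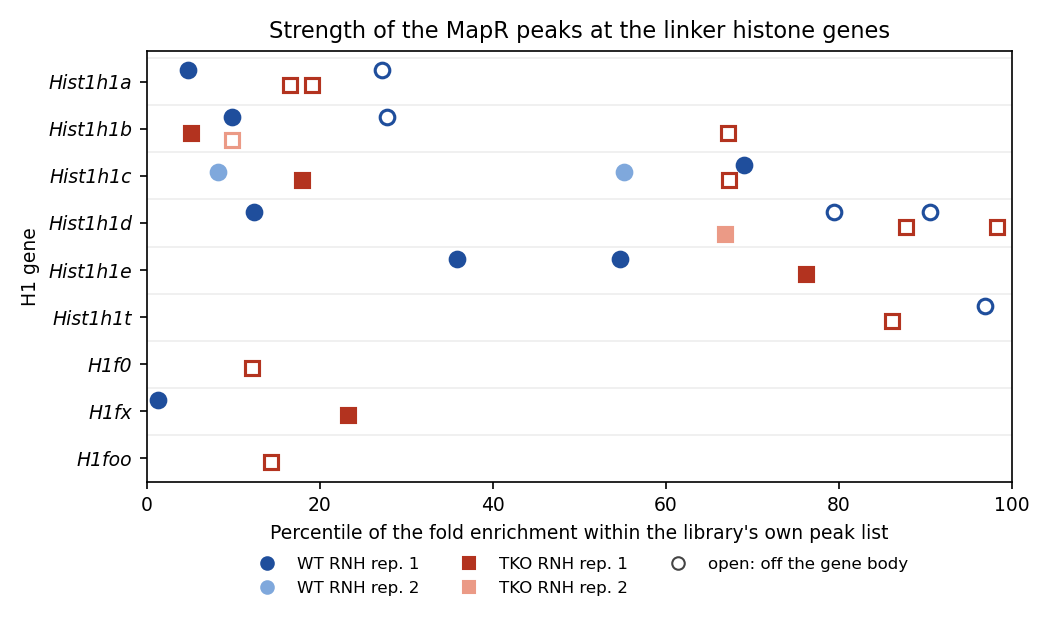
Percentile of the fold enrichment of each MapR peak at an H1 gene within the peak list of its own library, by gene; circles are WT, squares TKO, filled symbols lie on the gene body and open symbols beside it. The highest points, at 98.2 and 96.9, are open symbols at Hist1h1d and Hist1h1t, and no peak on a gene body passes 76.2.

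On the 3 genes with lower RNA, WT peaks covered coding bases and TKO peaks did not. Past the coding end, WT and TKO peaks overlapped. At Hist1h1c, WT replicate 1 had a peak of 1090 bp (chr13:23738808-23739897, fold enrichment 4.18) over all 636 coding bases. WT replicate 2 had a peak over 491 of those bases (chr13:23738958-23739448, 3.39) and a further one past them (chr13:23739524-23739879, 4.41). TKO replicate 1 had its peak on chr13:23739743-23740108 (3.15), with the first base 259 bp past the coding end, and TKO replicate 2 had none. Coding bases were thus covered in both WT libraries, and the TKO peak lay wholly on the 3′ side of them. There it overlapped the peak of WT replicate 1 and the further peak of WT replicate 2.

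Hist1h1d and Hist1h1e had the same arrangement in fewer libraries. At Hist1h1d, WT replicate 1 had a peak of 1271 bp (chr13:23555084-23556354, fold enrichment 3.00) over all 663 coding bases, and WT replicate 2 had none on the gene. TKO replicate 2 had a peak on chr13:23555931-23556307 (5.08), 179 bp past the coding end and wholly inside the stretch of the WT replicate 1 peak. TKO replicate 1 had none there, although it shared with WT replicate 1 the peaks near Hist1h4f and Hist1h3e on either side. At Hist1h1e, WT replicate 1 had a peak over 315 coding bases (chr13:23621858-23622172, 3.47) and another past them (chr13:23621256-23621613, 3.85). TKO replicate 1 had a peak on chr13:23621043-23621569 (4.54), which ended 272 bp short of the coding sequence on its 3′ side and overlapped the second WT peak. The coding-gene start nearest to both was that of Hist1h2be, 278 bp from the WT summit and 312 bp from the TKO summit. The TKO peak covered that start, which lies inside the GENCODE model of Hist1h1e but past its RefSeq end. The replicate 2 libraries had no peak at Hist1h1e. No TKO peak covered a coding base of these 3 genes.

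**Figure D5:**
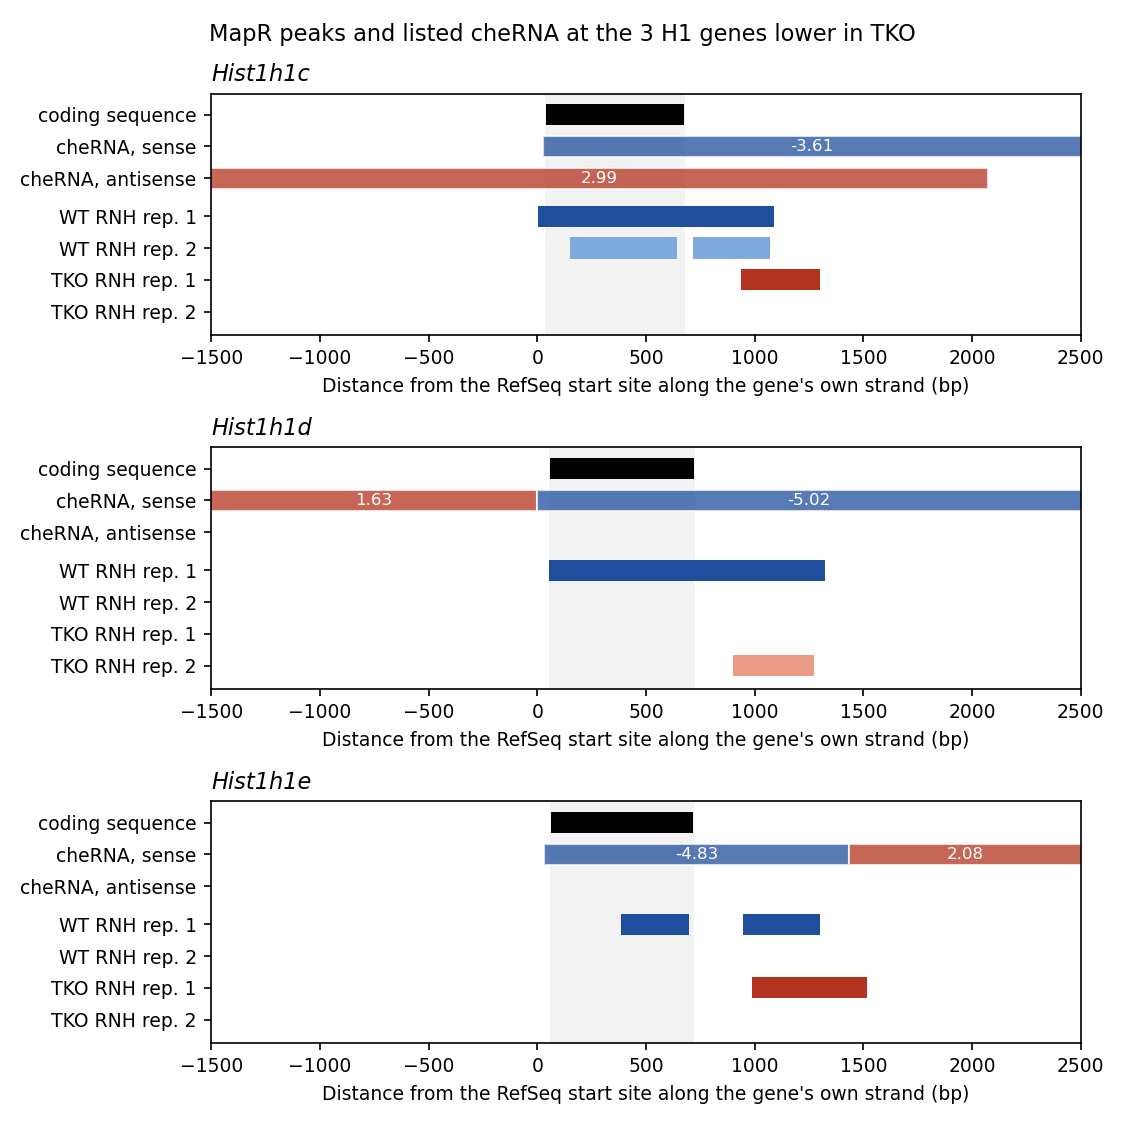
Hist1h1c, Hist1h1d and Hist1h1e along their own strand, with distance from the RefSeq start site in bp: coding sequence (black, grey band), listed cheRNA pieces with their log2 TKO over WT (red higher, blue lower, clipped at the panel edge) and the peaks of the 4 RNH libraries. WT peaks enter the grey band in each panel and also lie beyond it, where the TKO peaks begin and overlap them. The cheRNA turns from 1.63 to -5.02 at the start of Hist1h1d and from -4.83 to 2.08 past the end of Hist1h1e.

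The sequence around the WT summits is shown as it is DNA under a peak in WT and under none in either TKO list. At Hist1h1d and Hist1h1e the peak is in the list of WT replicate 1 only. Each window has 61 bases on the coding strand from the GRCm38.p6 reference, and capitals mark the summit base with 5 bases on each side.
Hist1h1c, WT replicate 1: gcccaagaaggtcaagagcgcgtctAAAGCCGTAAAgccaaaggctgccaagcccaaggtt
Hist1h1c, WT replicate 2: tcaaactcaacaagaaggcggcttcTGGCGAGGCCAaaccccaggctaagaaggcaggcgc
Hist1h1d, WT replicate 1: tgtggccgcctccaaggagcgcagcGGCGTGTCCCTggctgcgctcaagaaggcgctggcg
Hist1h1e, WT replicate 1: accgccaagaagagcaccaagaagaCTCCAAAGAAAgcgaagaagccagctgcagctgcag
They are chr13:23739391-23739451, chr13:23739162-23739222, chr13:23555233-23555293 and chr13:23622002-23622062. The summits lie at coding bases 573 and 344 of 636 in Hist1h1c, 174 of 663 in Hist1h1d and 466 of 657 in Hist1h1e. GC content of the 4 peaks ran from 54.0% to 62.9%.

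In numbers, 3 of these 3 genes had a coding peak in WT replicate 1 and 1 in WT replicate 2, against 0 in each TKO library. The groups do not overlap, but the two-sided exact permutation test gave p = 0.33, the smallest that 2 against 2 libraries allow, and this count was chosen after the peaks had been seen. The WT replicate 2 count rests on the Hist1h1c peak alone, with a -log10 q of 2.62 and a fold enrichment at percentile 8.30 of its own list. With a -log10 q of at least 5 that peak drops out, and WT replicate 2 then equals the TKO libraries. The groups then overlap, with a mean of 1 in WT and 0 in TKO. As these 3 genes are those known as knocked out, a loss of coding DNA would fix the TKO count at 0 before any test. The test cannot tell this from a difference in R-loops. A coding peak was present in 24.1% of all protein-coding genes in WT replicate 1, 3.24% in WT replicate 2, 29.1% in TKO replicate 1, 2.86% in TKO replicate 2, and 0.0684% and 0.0729% in the WT and TKO MNase-only libraries, where no member had one. Of the 5390 genes with a coding peak in a WT library, 20.6% had none in either TKO library, and of those with a coding span under 1 kb, 21.4% of 192. These 3 genes are so few that their count can be set beside that share but not tested against it. The absence of a peak in a list does not show that the DNA is absent, since no reads were counted.

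Of the other 6 members, Hist1h1a and H1fx also had a coding peak in WT and none in TKO, and the remaining 4 did not show this. Both of those WT peaks were weak, with a fold enrichment at percentile 4.79 (Hist1h1a) and 1.31 (H1fx) of the WT replicate 1 list. Hist1h1a had a peak over 374 coding bases in WT replicate 1 (chr13:23763714-23764090, fold enrichment 2.74) and none on the gene in the other libraries. H1fx had a peak over 205 coding bases in WT replicate 1 (chr6:87981152-87981466, 2.47), while the peak of TKO replicate 1 (chr6:87981571-87981879, 3.27) lay over its GENCODE start. At Hist1h1b, WT replicate 1 (chr13:21779518-21779909, 2.93) and TKO replicate 1 (chr13:21779545-21779948, 2.76) had nearly the same peak at the 3′ end, over 24 and 63 coding bases. TKO replicate 2 had a peak 231 bp beyond the 3′ end of the gene, and WT replicate 2 had none. Hist1h1t, H1f0 and H1foo had no peak on the gene body in any library. Of the 6 members with a coding peak in WT replicate 1, 5 had none in TKO replicate 1, and Hist1h1b had one in each. The 5 include Hist1h1c, Hist1h1d and Hist1h1e, where a loss of coding DNA would fix the TKO count at 0. The others are Hist1h1a and H1fx, with the weak peaks given above. Over all genes with a coding peak in WT replicate 1, the share without one in TKO replicate 1 was 20.8% of 5292, and 21.9% where the coding span was under 1 kb. Between the replicate 2 lists, where Hist1h1c was the 1 member with a coding peak in WT, 65.9% of 710 genes with one in WT had none in TKO, and 52.2% of the short ones. In the other direction, 34.3% of genes with a coding peak in TKO replicate 1 had none in WT replicate 1, and 44.5% of the short ones, against 0 of 1 member. Each of these shares sets 1 library against another and carries no replicate error.

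Of the 4 members with higher RNA, Hist1h1b and H1fx had a peak on the gene body in replicate 1 of each genotype. Hist1h1t and H1f0 had none in any library. Most protein-coding genes also lack a peak on the coding sequence, as 24.1% had one in WT replicate 1 and 29.1% in TKO replicate 1. Hist1h1t, with the highest gene-transcript value of the family, had its nearest peaks 1244 bp (WT replicate 1) and 977 bp (TKO replicate 1) past its 3′ end, where Hist1h4c starts. H1foo, which is not listed, had a peak 3137 bp before it in TKO replicate 1 only. With depth unknown and 2 lists per genotype, a peak seen in 1 library is not a difference between genotypes.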

How the data were processed

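The H1 members, the gene lists and the count of coding peaks were chosen with earlier results of these data known. Build mm10 and the tools MACS2, DESeq2, TopHat2, BWA, bedtools and SAMtools are named per the submitters' processing notes, with their roles and versions not stated. The authors deposited a table of cheRNA transcripts with a log2 fold change, whose sign was turned so that positive values mean more RNA in TKO. For each MapR library the authors deposited a peak list in the MACS2 layout, with a score, a fold enrichment (ratio) and -log10 p and -log10 q values. Depth is unknown, as the lists hold no reads. The 9 symbols were matched to GENCODE M21 and RefSeq (9 of 9), and the 9 RefSeq promoters were identical to the GRCm38.p6 genome. A peak counted at 1 bp of overlap with the gene body extended by 5 kb, or with coding sequence. Libraries were compared by exact permutation of 1 value per library, and the code that finds overlaps was tested on simulated data. P-values measure only the spread between these libraries, which may be technical. Python 3.11.15, pysam 0.24.0 and samtools 1.23.1 were used. Named were all members, listed transcripts within 50 kb, listed genes of the lists, and the 2 gene transcripts nearest in value to the lowest and highest member. Smarcad1, Gcat and the core histone genes beside peaks were named after their values were seen. The samples of the other assays were not analysed here.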

Additional observations from a re-analysis of the deposited data

How the results depend on the processing

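The direction of the MapR counts within 5 kb depended on the settings. The number of members with an RNH peak, TKO minus WT, was -1 for peaks on the gene body, -0.5 with a -log10 q of at least 5 and 0 with equal list lengths, and it ran from -2 to 5 when each RNH library was left out. The log2 TKO over WT of the number of peaks at H1 genes was 0.05 (exact permutation p = 1), -0.63 on the gene body, -0.10 within 1 kb, -0.58 with the stricter threshold, -0.11 with equal list lengths and between -1.06 and 1.16 when each RNH library was left out. The number of H1 genes listed higher was 2 with an absolute log2 of at least 2. The coding peaks of the 3 lower genes, TKO minus WT, ran from -3 to -1 over 7 alternatives added after the data had been seen. As each TKO library holds 0, this difference could not turn positive, and its sign says nothing of stability. With the stricter threshold it was -1, and WT replicate 2 then held no such peak either, so the groups overlapped. Whether replicate numbers pair the libraries is not stated. With the replicate block the difference was 1.5 for members, 0.05 for peaks and -2 for coding peaks (exact permutation p = 0.5, 1 and 0.5, with 0.5 the smallest possible), and it changed no call. Lists without reads give no depth, so a missing peak may be a matter of detection.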
